A study of Mus musculus with 44 samples.

Results

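The RNA of 2 mouse medulloblastoma lines, preGTS1 and GTML3, was compared under DMSO, the vehicle. The members are 6 of the 44 samples of the series, 3 titled preGTS1 with DMSO and 3 titled GTML3 with DMSO, taken by their column names in the deposited table of treated samples, and they carry values for 15926 genes. The study concerns MYC-driven medulloblastoma, a tumor of the cerebellum, and its recurrence from SOX9-positive cells. GTML3 is labelled as a GTML medulloblastoma tumor, a model in which a MYCN transgene is switched by tetracycline control and driven through the promoter of Glt1 (Slc1a2), the glutamate transporter of glia. preGTS1 is labelled as a preGTS1 medulloblastoma tumor, and its alleles, the age of the animals and the culture are not given in the labels. The labels give neither a dose nor a time for DMSO, and they do not say whether the 3 samples of a line came from separate cultures. The p-values therefore reflect only how far libraries scatter, and that scatter may be technical. It was estimated from 12 samples, these 6 and those of the same lines under DOX. Each line stands for 1 source, so a difference between the lines cannot be told apart from a difference between 2 single tumors. The other samples used are the same lines under DOX (3 samples each, DOX as labelled), ATAC-seq duplicates of both lines under DMSO, 6 GTS tumors and 8 GTML tumors.

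Medulloblastoma arises from progenitors of the developing hindbrain. MYCN is a transcription factor that pairs with MAX, binds E-box DNA and drives genes of ribosome production, metabolism and division, and MYC, its close relative, can do the same. Human medulloblastoma is sorted into subgroups by expression: one carries an active Sonic hedgehog (SHH) pathway and granule neuron progenitor genes, and another, called Group 3, often expresses retinal photoreceptor genes under OTX2 and CRX. SOX9 marks radial glia, Bergmann glia and astrocytes, and the ubiquitin ligase FBXW7 sends both SOX9 and MYC proteins to degradation.

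The preGTS1 libraries held 24.672, 24.31 and 23.967 M reads and the GTML3 libraries 20.718, 15.56 and 19.521 M reads. Reads of replicates differed by 9.83 to 29.63 chi-square per degree of freedom within preGTS1, with replicate 3 the furthest, and by 6.95 to 15.89 within GTML3, so no library was a copy of another. Values are in CPM, reads divided by the authors' scaled library size, computed from the deposited log2 CPM. A fold change is preGTS1 minus GTML3 on the log2 scale, so a positive value is higher in preGTS1, and a gene is called where limma's p, adjusted by Benjamini-Hochberg over all 15926 genes, is under 0.05. Of all genes 66.4% were called, 38.5% higher and 27.9% lower in preGTS1, so a call alone says little. In 72.6% of all genes the lines did not overlap, with every preGTS1 value above or below every GTML3 value. Most genes named below were chosen partly for being called without overlap, so neither adds support for them. Calls in each list below stand against the 38.5% and 27.9% of all genes. At least 2-fold, 2435 genes (15.3%) were higher and 1939 (12.2%) lower, and at least 8-fold 937 and 554. The median gene differed by 0.126. When each library was centred on its own median the median gene moved to 0.018 and the calls to 5323 higher and 5101 lower, and under that centring the medians of the BMP and axon guidance receptor lists below changed sign, to -0.035 and -0.027.

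The largest differences lay in genes with almost no reads in GTML3. A set of 111 genes had at most 3 reads over the 3 GTML3 libraries and a mean of at least 10 CPM in preGTS1, and 40 of them had 0 reads in GTML3. The opposite pattern was met by 4 genes. H1f0, the linker histone H1.0 found in non-dividing and differentiated cells, stood at 624, 621 and 633 CPM in preGTS1, against 1 read in the 3 GTML3 libraries together. Gldc, the glycine decarboxylase of the mitochondrial glycine cleavage system, stood at 263, 257 and 257 CPM in preGTS1 and had 0 reads in GTML3. In both genes the lines did not overlap, as was true of 72.6% of all genes. The promoters of 4 of the genes are printed as examples, not chosen by a rule. Each is 300 bases of RefSeq sequence, mouse build GRCm38.p6, from 250 bases before the gene's start to 50 after it, written 5′ to 3′ on the gene's strand with every CG in capitals. H1f0 lies at chr15:79027962-79028261 on the + strand, Gldc at chr19:30175392-30175691 on the - strand, Zfp518b, a zinc finger gene, at chr5:38684777-38685076 on the - strand, and Cenpb, the gene of a centromere-binding protein, at chr2:131180018-131180317 on the - strand.
H1f0: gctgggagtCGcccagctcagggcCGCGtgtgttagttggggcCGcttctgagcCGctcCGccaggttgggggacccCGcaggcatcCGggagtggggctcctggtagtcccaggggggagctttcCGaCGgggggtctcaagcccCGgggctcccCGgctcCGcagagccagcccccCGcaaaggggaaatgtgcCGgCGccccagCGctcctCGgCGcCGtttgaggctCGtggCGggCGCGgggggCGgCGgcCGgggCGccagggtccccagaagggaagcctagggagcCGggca
Gldc: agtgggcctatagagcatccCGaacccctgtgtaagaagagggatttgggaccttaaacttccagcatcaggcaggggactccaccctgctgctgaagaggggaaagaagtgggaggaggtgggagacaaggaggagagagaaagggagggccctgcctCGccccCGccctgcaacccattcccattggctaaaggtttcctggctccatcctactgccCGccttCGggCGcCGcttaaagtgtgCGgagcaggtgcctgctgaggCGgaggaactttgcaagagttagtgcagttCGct
Zfp518b: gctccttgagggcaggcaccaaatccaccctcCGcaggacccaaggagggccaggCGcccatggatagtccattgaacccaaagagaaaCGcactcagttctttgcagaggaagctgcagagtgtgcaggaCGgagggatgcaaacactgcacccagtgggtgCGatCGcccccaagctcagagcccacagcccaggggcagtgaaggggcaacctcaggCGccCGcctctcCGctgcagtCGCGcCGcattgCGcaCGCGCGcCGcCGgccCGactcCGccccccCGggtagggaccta
Cenpb: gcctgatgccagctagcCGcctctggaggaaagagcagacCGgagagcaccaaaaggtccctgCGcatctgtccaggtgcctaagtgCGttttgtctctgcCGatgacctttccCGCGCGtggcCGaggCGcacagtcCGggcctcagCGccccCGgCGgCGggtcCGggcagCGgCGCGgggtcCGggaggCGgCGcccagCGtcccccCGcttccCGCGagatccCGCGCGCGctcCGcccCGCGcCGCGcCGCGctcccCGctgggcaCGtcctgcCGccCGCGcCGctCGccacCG
The capitals only mark CG pairs in these 4 windows: the table held promoters for 77.5% of the 111 genes, too few for a statement on CG content over the set.

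All 4 of these promoters were more open in preGTS1. ATAC-seq counts fragments cut by a transposase, so reads pile up where chromatin is open. Duplicates were merged, which leaves 1 sample a line and no test. At the promoter, counted over the listed regions within 1 kb of the start, the CPM was 6.19 in preGTS1 and 0.293 in GTML3 for H1f0, 15.55 and 1.17 for Gldc, 33.4 and 2.63 for Zfp518b, and 25.9 and 1.46 for Cenpb. Those of Col3a1 (0.413 and 0.585) and Thbs2 (0.757 and 3.22), in the same set, were not more open in preGTS1. Depth differed, at 6.762 and 7.773 M reads in the preGTS1 duplicates and 1.748 and 1.671 M in those of GTML3, so low GTML3 values rest on few reads, 0 to 55 at the promoters of the 111 genes. Over the 111 genes, 96 had a region in reach and 94 had reads there in both lines, and 80 of the 94 (85.1%) were at least 1.5-fold more open in preGTS1, with 4 at least 1.5-fold less open. Of the 10436 genes with reads at the promoter in both lines, 11.2% were at least 1.5-fold higher and 30.2% at least 1.5-fold lower. The median ratio was 9.03 for the 94 genes and 0.813 for all. The 111 genes lay on 20 chromosomes, with 1 to 10 on each.

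Most of the same genes again had almost no reads in other GTML3 libraries, and tumors of both models expressed them. Under DOX, in separate libraries, 79 of the 111 again had at most 3 reads in GTML3, 11 had at least 10 reads and 1 reached a mean of 1 CPM. All 111 stood at 1 CPM or more in preGTS1 under DOX. That is a lower bar than the 10 CPM that chose the set, and how many stayed at 10 CPM was not counted. In the tumor table, which the authors normalized on its own, 104 of the genes were listed, with median levels of 4.47 (GTS tumors) and 4.35 (GTML tumors) on the log2 CPM scale, and 102 of them lay above 0 log2 CPM in GTML tumors. Of the 104, 63 were higher in GTS tumors, against 41.4% of the 12336 genes in both tables. Tumors hold other cells as well, and whether these account for the levels in GTML tumors was not tested.

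**Figure D1:**
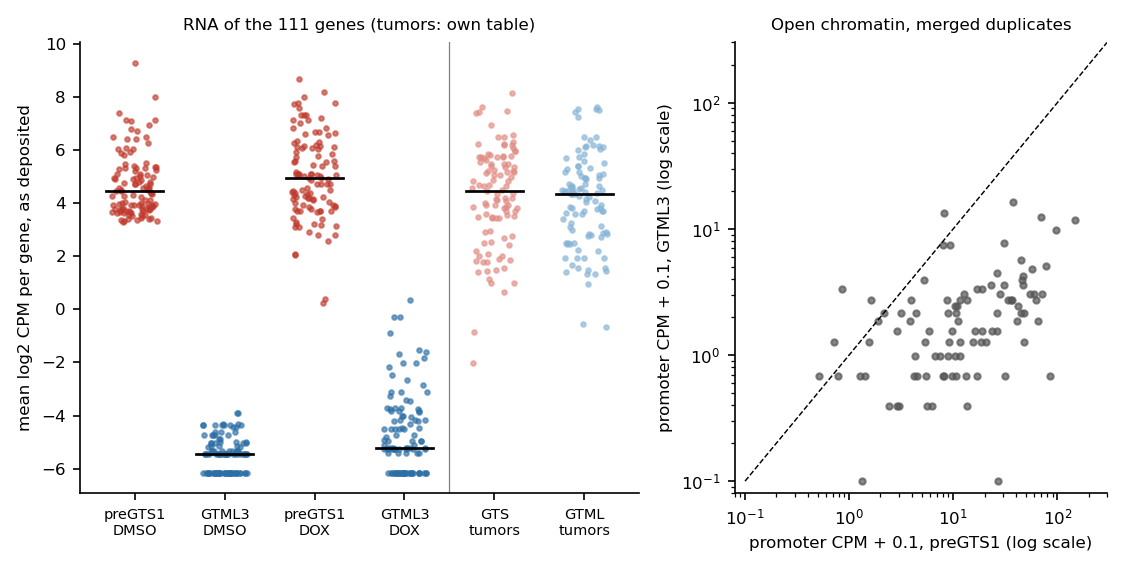
Left, the mean log2 CPM of each of the 111 genes in preGTS1 and GTML3 under DMSO and DOX and in GTS and GTML tumors (1 point per gene, bar at the median; tumor values come from their own table). Right, promoter CPM + 0.1 in preGTS1 (x) against GTML3 (y) on log axes, with the line of equal values dashed. The genes sit near the value of 0 reads in GTML3 under both treatments, lie at 4.47 and 4.35 log2 CPM (medians) in GTS and GTML tumors, and most promoters fall below the line.

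Other genes among the largest differences had 0 to 2 reads in GTML3. With 0 reads in GTML3 a fold is a lower bound, set against 3 reads over the 3 libraries, and the limma adjusted p of each gene in this paragraph was at most 2.08e-06. Gnai2, an inhibitory G protein subunit, stood at 126, 143 and 158 CPM in preGTS1, at least 2700-fold higher. Col3a1, a fibrillar collagen, stood at 159, 154 and 112 CPM, at least 2700-fold higher, and Thbs2, the matrix glycoprotein thrombospondin 2, at 141, 139 and 130 CPM, at least 2600-fold higher. All of their GTML3 libraries were at 0. Terc, the RNA template of telomerase (at least 1740-fold), S100a10, a partner of annexin A2 (at least 1650-fold), Ckap4, an endoplasmic reticulum membrane protein (at least 1120-fold), and Tmem98 (at least 885-fold) were also at 0 reads in GTML3. Aldh1l2, a mitochondrial folate enzyme, had 10926 reads in preGTS1 and 1 in GTML3, ratio 9730, exact 95% interval from counting 1750 to 384000. Zfp518b had 7123 reads and 1 read, Cnr1, the cannabinoid receptor of neurons, 5487 and 1, and Cenpb 7925 and 2. Intervals cover counting error only, since reads are not independent molecules.

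In the other direction the largest differences were also in genes with few or no reads in 1 line, here preGTS1. Rhox2h, a homeobox gene of an X-linked cluster, had 0 reads in preGTS1 and stood at 34.1, 37.4 and 33.1 CPM in GTML3, at least 739-fold lower in preGTS1. The early embryo genes Zscan4d, Zscan4c and Zscan4f also had 0 reads in preGTS1, and were at least 320-fold, 239-fold and 177-fold lower. They are near-identical copies, as are the Rhox2 genes, so the split of reads among copies is uncertain. Nell1, a secreted protein of bone growth, stood at 0.0913, 0.0928 and 0.194 CPM in preGTS1, against 93.7, 92.1 and 96.3 CPM in GTML3, and the lines did not overlap (limma log2 fold change -9.47, SE 0.21, adjusted p = 1.29e-14). Spock1, a testican proteoglycan of the brain matrix, stood at 0.0913, 0.186 and 0.291 CPM, against 62.7, 60.9 and 60.2 CPM (-8.36, SE 0.27). Unc45b, a myosin chaperone, had 5 reads and 2097 reads, and the uncharacterized 3830403N18Rik 3 and 3300. Bpifb4, Wfdc1 and Gm6763 had 0 reads in preGTS1 and were at least 208-fold, 144-fold and 124-fold lower, and Rprl1, a transcript related to the RNA of ribonuclease P, had 13 and 4137 reads. All 12 of the highest and all 12 of the lowest genes were called in the same direction under DOX. Of those in the tumor table, 6 of 11 of the highest and 3 of 6 of the lowest differed in the same direction between GTS and GTML tumors.

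The genes behind the model differed between the lines. Mycn stood at 1492, 1400 and 1924 CPM in preGTS1, against 413, 357 and 344 CPM in GTML3. All preGTS1 samples lay above all GTML3 samples (limma log2 fold change 2.10, SE 0.15, adjusted p = 2.45e-08). Whether reads of the transgene are counted with those of the mouse gene here was not tested. Sox9 was low in both lines, at 4.61, 2.18 and 3.16 CPM in preGTS1 and 0.521, 0.568 and 1.195 CPM in GTML3. It was higher in preGTS1 with no overlap (2.14, SE 0.33, limma adjusted p = 2.97e-05). Myc had 84 reads in preGTS1 and 1 in GTML3, ratio 74.8, interval 13.1 to 2990. Slc1a2, whose Glt1 promoter drives the transgene of the GTML model, was lower in preGTS1, at 62.0, 60.9 and 47.8 CPM against 91.1, 88.3 and 97.5 CPM (-0.71, SE 0.11, limma adjusted p = 3.37e-05). Fbxw7 was also lower (-0.48, limma adjusted p = 8.59e-05), as was Mgmt, the repair protein that takes alkyl groups off guanine and counters alkylating drugs (4.06, 3.81 and 4.81 CPM against 7.15, 5.68 and 7.32 CPM; -0.66, SE 0.20, limma adjusted p = 0.00828). In both genes the lines did not overlap.

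**Figure D2:**
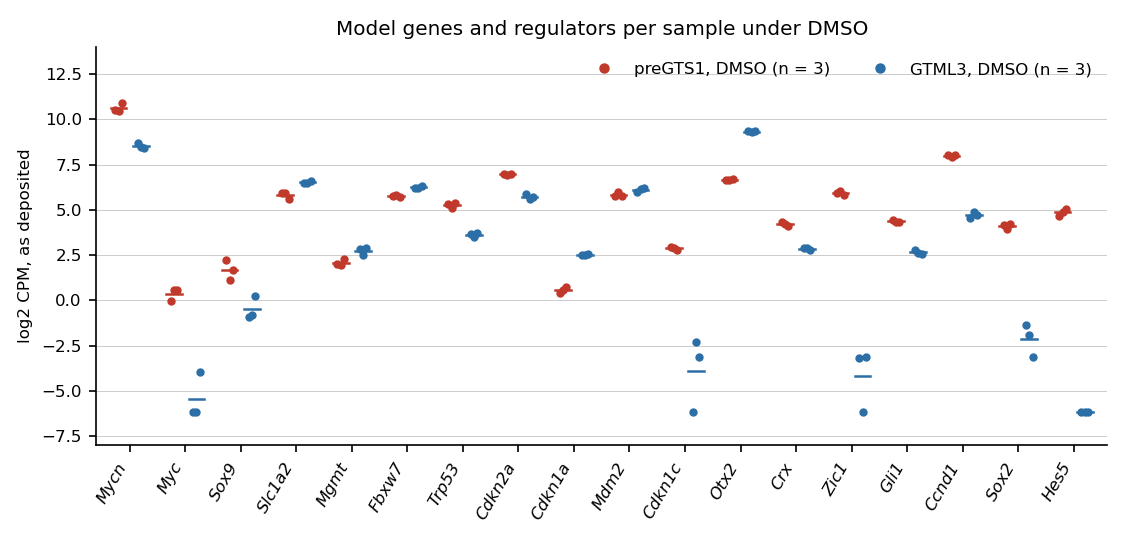
Log2 CPM per sample for model genes and regulators of growth and identity under DMSO, preGTS1 left of GTML3 for each gene, with the group mean as a bar. Mycn is higher in preGTS1 by 2.10 and Otx2 is lower (-2.65), and the points at the foot of the plot are libraries with 0 reads.

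In the MYC and MAX network 10 of 14 genes were higher in preGTS1 and 2 lower, with a median of 0.59. Of all genes 38.5% were higher and 27.9% lower, here and for the lists that follow. Mycs, a Mycn-like gene, was higher at 46.8, 47.7 and 75.0 CPM in preGTS1 against 15.58, 13.4 and 12.5 CPM in GTML3 (SE of the log2 fold change 0.31), and whether its reads came from Mycn was not tested. The carbohydrate sensor Mlxipl (-4.26, SE 0.43) and its relative Mlxip (-0.52) were lower. Of the p53 tumor suppressor and its targets 16 of 24 were higher and 5 lower (median 0.68). Trp53 itself stood at 39.6, 34.5 and 42.1 CPM in preGTS1, against 12.7, 11.2 and 13.4 CPM in GTML3, with no overlap (1.64, SE 0.13, limma adjusted p = 2.84e-08). Its targets did not move one way. The cell death genes Pmaip1 (372 reads and 0, at least 110-fold) and Tnfrsf10b (210 reads and 1, ratio 187, interval 33.2 to 7420) were higher. Cdkn1a, the p21 brake on the cell cycle, stood at 1.32, 1.49 and 1.65 CPM in preGTS1 and 5.64, 5.74 and 5.88 CPM in GTML3, and was lower with no overlap (-1.95, SE 0.22, limma adjusted p = 1.11e-06), as were Phlda3 (-1.42) and Pltp (-3.10). Among 9 genes of CDK inhibitors and the retinoblastoma family, Cdkn2a, the INK4A and ARF locus, was higher in preGTS1 at 126, 120.0 and 127 CPM against 59.4, 48.0 and 53.4 CPM (1.22, SE 0.12, limma adjusted p = 2.52e-07). Its promoter read 30.1 CPM in preGTS1 and 3.51 CPM in GTML3 by ATAC-seq. The imprinted inhibitor Cdkn1c was higher too (472 reads and 5 reads) and Rbl1 lower (-0.57), while Rb1 (-0.31) did not pass the test.

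Genes that make ribosomes were mostly higher in preGTS1. Of 38 ribosome biogenesis genes 32 were higher, against 38.5% of all genes, and 1 was lower, with a median of 0.63 against 0.126 for all genes. The differences were small: 6 of the 38 reached 2-fold. Npm1, the nucleolar chaperone nucleophosmin, stood at 3131, 3258 and 3126 CPM in preGTS1 and 1017, 1096 and 1086 CPM in GTML3 (1.57, SE 0.11, limma adjusted p = 8.24e-09). Pes1, which matures the large ribosomal subunit RNA, stood at 462, 444 and 471 CPM and 186, 187 and 183 CPM (1.31, SE 0.08), and Nip7 was higher by 1.25. The lines did not overlap in Npm1, Pes1 or Nip7, and Ltv1, a small subunit assembly factor, was lower (-0.35, SE 0.10). MYC proteins bind the E-box CACGTG, and the promoter of Pes1 holds 1, shown in capitals (RefSeq, GRCm38.p6, chr11:3963725-3964024, + strand).
Pes1: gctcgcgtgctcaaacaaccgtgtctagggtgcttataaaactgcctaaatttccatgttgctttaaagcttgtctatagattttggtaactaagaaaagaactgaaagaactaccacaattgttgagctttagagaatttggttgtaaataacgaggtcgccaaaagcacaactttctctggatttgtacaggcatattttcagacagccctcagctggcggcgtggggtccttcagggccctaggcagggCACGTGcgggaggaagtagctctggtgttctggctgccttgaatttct
CACGTG reads the same on both strands and was found in 1957 of 27025 RefSeq promoters of this length (7.24%), and in 8 of the 34 ribosome biogenesis genes that have one there (23.5%). Their promoters did not differ in the same way, with 0 of 34 at least 1.5-fold more open in preGTS1 and 8 less open. Of all genes 11.2% were more open and 30.2% less open. The median ratio was 0.862, against 0.813 for all genes. In tumors 1 of 37 was higher in GTS, against 41.4% of all genes. Mycn differed there by -0.63, GTS minus GTML on the log2 scale, and a link of Mycn to these genes was not tested. Under DOX 19 were higher in preGTS1 and 5 lower, and of all 15926 genes 5879 and 5579.

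Translation genes were among those with the largest difference in CPM. Eef1a1, which brings transfer RNA to the ribosome, stood at 15400, 13110 and 11740 CPM in preGTS1 and 4461, 4531 and 4258 CPM in GTML3 (1.59, SE 0.14, limma adjusted p = 6.2e-08). Eef2, the elongation factor of translocation (1.22), the ribosomal stalk gene Rplp0 (1.45) and Gnb2l1, the ribosomal scaffold RACK1 (1.49), were also higher in preGTS1. These genes have processed copies in the genome that may share reads. Rmrp, the RNA of ribonuclease MRP, was higher by 1.42 (SE 0.23), and Rpph1, that of ribonuclease P, by 1.07 (SE 0.36, limma adjusted p = 0.0235), a call lost without preGTS1 replicate 3 (limma adjusted p = 0.0878) or GTML3 replicate 3 (0.0638), in a range of 0.0158 to 0.0878 over 15 settings. The transcript listed as AY036118 stood at 56.0, 478 and 199 CPM in preGTS1 and 18990, 20770 and 16170 CPM in GTML3, which was 0.0214% of all preGTS1 reads and 1.89% of all GTML3 reads. It was lower in preGTS1 (-6.73, SE 1.95, limma adjusted p = 0.0144), and not called without preGTS1 replicate 1 (limma adjusted p = 0.0512, in a range of 8.27e-07 to 0.0512 over 15 settings).

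Division genes differed little. Of 47 S phase genes 15 were higher and 13 lower, with a median of 0.12 and 0 at 2-fold in either direction by limma. Cdca7 (0.94), the histone chaperone Nasp (0.81) and thymidylate synthase Tyms (0.69) were higher, and the cell cycle factor E2f1 (-0.997), Pold3 (-0.64) and Rrm1 (-0.58) lower, and Pcna (0.27) did not pass. Of 47 G2 and mitosis genes 19 were higher and 11 lower (median 0.22), and 4 of them reached 2-fold higher and 0 lower. A pair stood apart. Psrc1, a spindle protein, had 2569 reads in preGTS1 and 2 in GTML3, and Ccnb2, cyclin B2, stood at 54.0, 50.3 and 48.0 CPM, against 0.852, 0.694 and 0.249 CPM (6.54, SE 0.39, limma adjusted p = 8.37e-10). Neither gene overlapped between the lines, a condition for naming them. Hjurp, which loads the centromere histone, was higher by 1.69, while the proliferation marker Mki67 stood at 651, 575 and 521 CPM in preGTS1 and 1144, 1133 and 1151 CPM in GTML3 (-0.98, SE 0.13, limma adjusted p = 6.44e-06) and cyclin A2, Ccna2, was lower (-0.95).

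Serine, one-carbon and ATF4 genes were higher in 29 of 37 cases and lower in 2 (median 0.66), and 14 were at least 2-fold higher, against 15.3% of all genes. Besides Gldc and Aldh1l2, Cbs, which starts the transsulfuration of homocysteine, had 7239 reads in preGTS1 and 8 in GTML3, ratio 806, interval 409 to 1870. The serine synthesis enzyme Phgdh did not pass the test (0.23), and Psph was lower (-0.35), as was the arginine transporter Slc7a3 (-0.22, limma adjusted p = 0.0487), whose call was lost in 8 of 15 other settings (adjusted p from 0.00498 to 0.131). Glycolysis and hypoxia genes were higher in 26 of 39 cases and lower in 6 (median 0.49). The glucose transporter Slc2a3 stood at 39.4, 32.4 and 31.7 CPM in preGTS1 and 0.426, 0.757 and 0.199 CPM in GTML3 (6.36, SE 0.34, limma adjusted p = 2.62e-10), and phosphofructokinase Pfkp (3.79) and brain aldolase Aldoc (2.80) were higher. Neuronal enolase, Eno2, was lower at 2.69, 1.86 and 3.16 CPM against 62.0, 58.6 and 60.7 CPM (-4.58, SE 0.15), along with Pdk3 (-1.08) and Ldhb (-0.88). The lines did not overlap in any of these glycolysis genes, a condition for naming them.

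Most photoreceptor genes were lower in preGTS1. Of 31 phototransduction and retinal structure genes with values, 26 were lower in preGTS1, all of them at least 2-fold, against 12.2% of all genes, and 1 was higher, with a median of -3.24. On a scale of log2(CPM + 1), which shrinks differences of low genes, the median was -1.56. Rbp3, the retinoid carrier between photoreceptors and pigment cells, stood at 1.14, 1.39 and 1.85 CPM in preGTS1, against 188, 178 and 202 CPM in GTML3, with no overlap (-7.03, SE 0.14, limma adjusted p = 5.25e-15). Gngt1, the gamma subunit of the rod G protein, had 5 and 282 reads (ratio 0.0158, interval 0.00509 to 0.0373), although its promoter was more open in preGTS1, at 7.91 and 1.46 CPM. The promoters of Rbp3 (RefSeq, GRCm38.p6, chr14:33953753-33954052, + strand) and Gngt1 (chr6:3993758-3994057, + strand) are printed because CRX and OTX2 bind TAATCC, and each holds 1 match, here as GGATTA on the printed strand, in capitals.
Rbp3: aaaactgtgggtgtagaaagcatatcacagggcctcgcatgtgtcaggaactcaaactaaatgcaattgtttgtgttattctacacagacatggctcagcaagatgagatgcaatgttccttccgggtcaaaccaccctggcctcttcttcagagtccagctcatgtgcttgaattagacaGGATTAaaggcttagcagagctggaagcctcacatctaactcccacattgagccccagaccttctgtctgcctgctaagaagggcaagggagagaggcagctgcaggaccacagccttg
Gngt1: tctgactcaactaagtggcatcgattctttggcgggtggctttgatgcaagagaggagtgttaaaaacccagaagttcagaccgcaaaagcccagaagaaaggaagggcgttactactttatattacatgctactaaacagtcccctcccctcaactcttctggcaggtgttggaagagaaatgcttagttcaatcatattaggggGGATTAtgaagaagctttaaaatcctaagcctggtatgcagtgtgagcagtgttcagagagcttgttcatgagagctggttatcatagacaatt
TAATCC was found on either strand in 1935 of 27025 RefSeq promoters of this length (7.16%), and a match is not evidence of binding. The table held a promoter for only 22 of the 31 genes, so the same check over this list is void. Grk1 (-0.38), a kinase gene of photoreceptors, Reep6 (-0.74) and Fscn2 (0.84) did not pass the test. Cngb1, a channel subunit of rods, was higher in preGTS1 (255 and 5 reads, 5.43, SE 0.37).

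**Figure D3:**
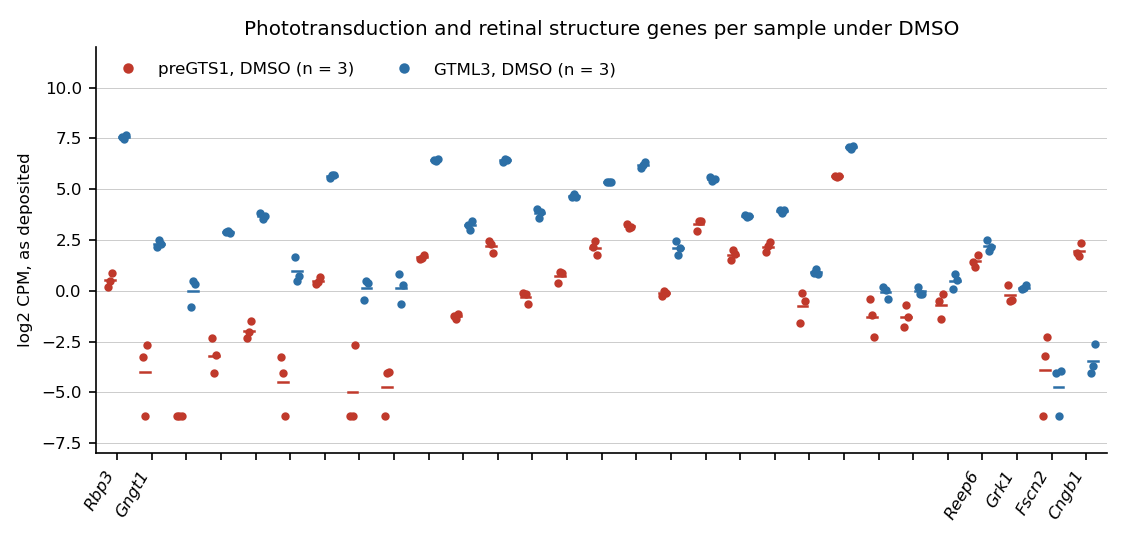
Log2 CPM per sample under DMSO for 29 of the 31 phototransduction and retinal structure genes, ordered by fold change, with names under those described in the text, preGTS1 left of GTML3 and the mean as a bar. The preGTS1 points lie below those of GTML3 for the 25 genes plotted that were called lower and above for Cngb1 (5.43).

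The regulators of that program were split. Otx2 stood at 99.5, 101 and 106 CPM in preGTS1, against 650.2, 631 and 649 CPM in GTML3, and was lower with no overlap (-2.65, SE 0.07, limma adjusted p = 7.77e-14). Crx was higher in preGTS1 at 20, 18.7 and 17.3 CPM against 7.34, 7.57 and 6.82 CPM (1.36, SE 0.09, limma adjusted p = 1.77e-09), and its promoter read 31.5 CPM in preGTS1 and 2.93 CPM in GTML3. Neurod1 (-1.60) and the thyroid hormone receptor gene Thrb (-1.25) were lower, and the motor neuron homeobox gene Isl2 (772 and 1 reads) and the repressor Prdm1 (1.88) higher, so that 3 of 9 factors were higher and 6 lower. The promoters of the phototransduction list did not follow its RNA, with 10 of 23 at least 1.5-fold more open in preGTS1 and 6 less open. Of all genes 11.2% were more open and 30.2% less open. The median ratio was 1.31, against 0.813 for all genes. Under DOX 27 of the 31 phototransduction genes were lower in preGTS1 and 1 higher, with a median of -3.60. Of all 15926 genes 5579 were lower and 5879 higher under DOX. In tumors 13 of the 31 were higher in GTS, against 41.4% of all genes. The differences of Otx2 and Rbp3, GTS minus GTML on the log2 scale and not tested, were -3.48 and -2.93.

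Granule progenitor, rhombic lip and unipolar brush cell factors were higher in 15 of 24 cases and lower in 4 (median 1.69). At least 2-fold higher were 12, against 15.3% of all genes. The median was 2.49 among genes with 1 CPM in 3 DMSO samples, 0.90 among those with a mean of 5 CPM and 1.10 on the log2(CPM + 1) scale. Zic1, a zinc finger factor of granule neuron progenitors, stood at 61.9, 65.2 and 56.9 CPM in preGTS1 and had 4 reads in GTML3, ratio 876, interval 342 to 3220 (limma adjusted p = 5.7e-05), and its promoter read 26.8 CPM in preGTS1 and 0 in GTML3. Zic4 (377 reads and 0, at least 112-fold) and Calb2, the calretinin of unipolar brush cells (4357 and 18 reads), were also higher. Not all factors of this origin went that way. Barhl2, a rhombic lip homeobox gene, stood at 3.29, 3.81 and 4.37 CPM in preGTS1 and 104, 90.8 and 108 CPM in GTML3 (-4.73, SE 0.14, limma adjusted p = 3.96e-13), Mab21l1 was lower (-3.57), and Pax6, which granule neurons and the eye share, was lower at 21.5, 24.1 and 23.99 CPM against 140.4, 130.4 and 143 CPM (-2.57, SE 0.08). The groups did not overlap in any of these, a condition for naming them.

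SHH pathway genes were higher in 12 of 17 cases and lower in 3 (median 1.56), against 38.5% and 27.9% of all genes. Gli3, which encodes the GLI factor that acts mainly as a repressor, had 1361 reads in preGTS1 and 1 in GTML3, with 70.8 and 2.93 promoter CPM. Hhip, a decoy receptor that binds SHH and is induced by it, stood at 36.2, 31.9 and 28.6 CPM in preGTS1 and had 9 reads in GTML3. Sfrp1, a secreted WNT antagonist kept in this list, had 3634 reads and 1. The pathway's usual readouts, named after their values were seen, were less far apart: Gli1 averaged 20.8 CPM in preGTS1 and 6.28 CPM in GTML3 (1.73), and the receptor gene Ptch1 had 8324 and 2314 reads (1.68). Gli2 did not pass (0.05). Disp2 (-4.20) and Disp1 (-1.10), which release SHH, and cyclin D2, Ccnd2 (-1.24), were lower. Notch pathway genes were higher in 15 of 28 cases and lower in 4 (median 0.57). The target genes Hes5 (1871 reads and 0, at least 556-fold) and Hes1 (2384 and 12 reads), which hold progenitors back from neuronal fate, were higher. So was the target gene Nrarp (at least 85.5-fold). The ligand gene Dner (-1.11), the glycosyltransferase gene Rfng (-1.07) and Hes7 (-2.90) were lower, and Hey1 did not pass (-1.81).

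Proneural and neuroendocrine transcription factors were lower in 12 of 22 cases and higher in 5 (median -0.55). Bhlhe22, a retinal and cortical neuron factor, stood at 8.72, 10.3 and 8.84 CPM in preGTS1, against 277, 278 and 305 CPM in GTML3 (-4.95, SE 0.09, limma adjusted p = 8.59e-16), and Atoh7, which starts retinal ganglion cells (-4.01), and Neurog2 (-3.53) were lower. Ebf2 (683 and 3 reads), Olig1, an oligodendrocyte and progenitor factor (545 and 2 reads), and Neurod6 (1236 and 15 reads) were higher in preGTS1. Under DOX the list's median was 0.72, with 13 higher and 6 lower, and of all 15926 genes 5879 and 5579.

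Glial and stem cell genes were mostly higher in preGTS1. Of 11 SOX genes 7 were higher and 2 lower (median 2.14, or 1.28 on the log2(CPM + 1) scale): Sox1 (3382 and 7 reads), Sox21 (186 and 1) and Sox13 (527 and 7) were higher, and Sox6 (-2.44) and Sox5 (-0.73) lower. Sox2, the neural stem cell factor, named after its values were seen, averaged 17.4 CPM in preGTS1 and 0.244 CPM in GTML3. Of 36 nuclear factor I and astroglial or radial glial genes 24 were higher and 10 lower (median 0.80). The metal-binding Mt1 had 2607 reads in preGTS1 and 0 in GTML3 (at least 774-fold), and its promoter read 36.3 and 2.63 CPM. Gja1, the astrocyte gap junction protein, had 4258 reads and 1, and tenascin C, Tnc, 2088 and 5. Dio2, the astrocyte enzyme that activates thyroid hormone, stood at 0.548, 0.650 and 0.874 CPM in preGTS1 and 38.6, 42.8 and 40.4 CPM in GTML3 (-5.88, SE 0.20, limma adjusted p = 1.28e-12). Ttyh1 (-2.10) and the progenitor RNA-binding gene Msi1 (-1.59) were lower as well. The glutamine synthetase gene Glul did not pass (0.05).

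Growth factor receptors and ERK feedback genes were higher in 25 of 41 cases and lower in 10 (median 0.79), against 38.5% and 27.9% of all genes. Egfr, the epidermal growth factor receptor, stood at 42.3, 43.2 and 42.6 CPM in preGTS1 and had 1 read in GTML3. Igfbp3, which binds insulin-like growth factors (at least 452-fold), and Met, the hepatocyte growth factor receptor (at least 195-fold), had 0 reads in GTML3. Ret, the receptor for GDNF ligands, went the other way, at 1.64, 1.3 and 2.48 CPM in preGTS1 and 83.1, 82.2 and 90.7 CPM in GTML3 (-5.60, SE 0.18, limma adjusted p = 2.97e-12), as did Erbb3 (-4.59) and Mst1r (-4.74). WNT pathway genes were balanced, with 17 of 43 higher and 15 lower (median -0.13): the receptor Ror2 (1709 and 2 reads) and Sfrp2 (952 and 1) were higher, and Fzd6 (-3.16), Daam2 (-2.98) and the feedback inhibitor Nkd2 (-2.97) lower. So were BMP, ID and TGF-beta genes, with 16 of 39 in each direction (median 0.07). Inha (at least 40.7-fold) and the inhibitor of differentiation genes Id4 (at least 39.8-fold) and Id3 (842 and 15 reads) were higher. Tgfb1 (14 and 340 reads, limma adjusted p = 0.0139), Acvrl1 (8 and 119 reads) and Inhbb (-3.04) were lower, and the Tgfb1 call was lost without preGTS1 replicate 1 (adjusted p = 0.0511, in a range of 3.13e-06 to 0.0511 over 13 settings).

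Neuronal genes split within each family. Over all genes 38.5% were called higher and 27.9% lower, and 15.3% and 12.2% at 2-fold. Of 47 neuronal differentiation genes 19 were higher and 24 lower (median -0.38), with 17 at least 2-fold in each direction. The neurofilament genes Nefl (2406 reads and 0, at least 714-fold) and Nefm (702 and 1) were higher in preGTS1. The adhesion gene Cntn1 stood at 34.7, 33.3 and 35.3 CPM in preGTS1 and 489, 510.3 and 509.5 CPM in GTML3 (-3.87, SE 0.08, limma adjusted p = 5.73e-15), and L1cam was lower (-4.70). Dpysl3, a growth cone protein, was lower at 130.2, 143 and 150.2 CPM against 1361, 1334 and 1426 CPM (-3.29, SE 0.08), and Rgs4, which shortens G protein signals in neurons, at 6.80, 8.77 and 7.72 CPM against 985, 1075 and 1110 CPM (-7.09, SE 0.12). Groups were apart in all of these, a condition for naming them. Of 14 neuropeptide and secretory granule genes 4 were higher and 8 lower, including the prohormone convertase Pcsk2 (-5.76), Nts (2 and 62 reads) and Vgf (-2.09), while Pomc (99 and 1 reads), Cadps (181 and 10 reads) and Pam (0.79) were higher.

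Glutamate, GABA and glycine receptor genes were higher in 11 of 21 cases and lower in 10, with a median of 0.48 that turned to -0.51 where the filter asked for 1 CPM in 3 DMSO samples and -0.94 where it asked for a mean of 5 CPM. Gria4 (895 and 1 reads), Gabra4 (805 and 1) and Gabrb2 (385 and 0, at least 114-fold) were higher, and Grin1 (-4.50) and Grid1 (-2.83) lower. Of 72 voltage-gated channel genes 27 were higher and 33 lower, with 25 at least 2-fold in each direction. The potassium channel genes Kcnj3 (at least 736-fold), Kcnt2 (at least 217-fold) and Kcnk10 (1037 and 2 reads) were higher, and the promoter of Kcnk10 read 146 CPM in preGTS1 and 11.7 CPM in GTML3. Kcnj6 (9 and 179 reads), Kcnab1 (-4.09) and Kcnip2 (-4.04) were lower. Axon guidance ligands were called higher in 15 and lower in 13 of 38, with Efna4 (816 and 0 reads, at least 242-fold), Sema6d and Ntn1 (2452 and 17 reads) higher and Slit3 (-5.14), Sema6b (-2.12) and Sema4a (-2.04) lower. Their receptors were higher in 16 and lower in 14 of 33, with Ephb1 (1477 and 1 reads), Nrp1 (997 and 1) and Ephb3 higher and Plxna4 (-5.36), Epha2 (-3.96) and Epha10 (-3.68) lower. Of 22 classical and type II cadherin genes 13 were higher and 8 lower, with Cdh7 (at least 189-fold), Celsr1 (4099 and 12 reads) and Cdh10 (760 and 6) higher and Cdh19 (0 and 99 reads, at least 37-fold), Clstn3 (-4.92) and Cdh9 (16 and 81 reads) lower. Protocadherin genes were higher in 28 of 54 cases and lower in 10 (median 0.53), with Pcdh15 (661 and 6 reads), Pcdhgb1 and Pcdh7 higher and Pcdhb4 (-2.64), Pcdh10 (-2.61) and Pcdh19 (-2.44) lower, and members of the clusters share sequence, so their reads may be split between copies.

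Matrix genes were among the lists most often higher in preGTS1. Of 65 collagens and matrix proteins 44 were higher, 38 of them at least 2-fold against 15.3% of all genes, and 16 lower, with a median of 1.82, or 1.15 on the log2(CPM + 1) scale. Beside Col3a1 and Thbs2, the fibrillin gene Fbn2 had 5923 reads in preGTS1 and 2 in GTML3. Beside Spock1, Col8a1 (1 and 384 reads, ratio 0.00232, interval 5.86e-05 to 0.013) and Col26a1 (9 and 480 reads) were lower. In this list 23 of 49 promoters were at least 1.5-fold more open in preGTS1 and 13 less open, against 11.2% and 30.2% of all genes. Those of Col3a1 (0.413 and 0.585 CPM) and Thbs2 (0.757 and 3.22 CPM) were near closed in both lines. Of 13 mesenchymal transition regulators 8 were higher and 4 lower: Twist1, a mesodermal factor, had 1920 reads and 0 (promoter 11.6 and 2.63 CPM), Tead2, a partner of YAP and TAZ, stood at 294, 301 and 347 CPM in preGTS1 and 1.52, 2.08 and 2.04 CPM in GTML3 (7.38, SE 0.40, limma adjusted p = 7.28e-08), and Wwtr1, which encodes TAZ, was higher, while Tead1 (-1.28), Tead3 (-1.17) and Amotl2 (-0.46) were lower. Annexin, S100 and galectin genes were higher in 10 of 14 cases and lower in 2 (median 1.497, or 2.44 among genes with a mean of 5 CPM), with Anxa4 (514 and 1 reads) and Anxa2 (5.84) higher beside S100a10, and Anxa3 (2 and 63 reads) and Anxa9 (-1.10) lower.

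HOX genes pattern the body axis behind the cerebellum. Of 39 HOX genes 9 had values: 6 were higher in preGTS1, among them Hoxd10 (81 and 0 reads, at least 24.1-fold), Hoxd13 (130 and 1) and Hoxd8 (485 and 5), and 2 lower, Hoxc9 (1 and 220 reads) and Hoxc4 (9 and 260). Their median was 4.91, or 4.59 with Hoxd10 at its bound, and rests on low counts: it was 4.14 without GTML3 replicate 1, 5.56 without GTML3 replicate 2 and 1.11 on the log2(CPM + 1) scale, and 1 of the 9 genes had a mean of 5 CPM or more. Of 32 regional homeobox and forkhead genes 11 were higher and 12 lower: Lmx1b (at least 43.4-fold), Irx2 (467 and 3 reads) and Nkx6-1 (132 and 2) were higher, and Lhx8 (5 and 200 reads), Lhx4 (-4.18), a factor of photoreceptor and bipolar cells, and Pax3 (-3.60) lower. Germline and early embryo genes were lower in 15 of 23 cases and higher in 4 (median -0.96, or -0.59 among genes with a mean of 5 CPM), with the piRNA pathway genes Tdrd1 (1025 and 16 reads) and Piwil4 (2.53) and Rhox5 (1.09) higher. Imprinted genes, which are expressed from the copy of 1 parent, were higher in 16 of 27 cases and lower in 6 (median 0.78). Mest (1239 and 0 reads, at least 368-fold) and Nap1l5 (406 and 3) were higher, and Grb10, an adaptor that restrains insulin signalling, stood at 615, 630 and 592 CPM in preGTS1 and 1.94, 2.52 and 2.64 CPM in GTML3 (8.02, SE 0.12, limma adjusted p = 3.58e-16), with 12.7 and 0.293 promoter CPM. Nnat, neuronatin, was lower at 69.1, 68.5 and 96.1 CPM against 4922, 4325 and 4422 CPM (-5.89, SE 0.14, limma adjusted p = 5.7e-14). Blcap, in whose intron Nnat lies, was lower too (-1.86), and whether reads were shared between them was not tested. Asb4 had 9 and 1038 reads.

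Y-linked genes were low in preGTS1 and expressed in GTML3. Eif2s3y stood at 1.55, 1.76 and 1.89 CPM in preGTS1, against 33.9, 45.2 and 41.9 CPM in GTML3 (-4.52, SE 0.19, limma adjusted p = 1.27e-11), and its promoter had 0 ATAC CPM in preGTS1 and 16.1 in GTML3. Uty (-3.70) and Ddx3y (-3.38) went the same way, with no overlap. Of 10 X inactivation and Y-linked genes 7 were lower and 1 higher, Ddx3x (0.60).  Genes of MHC class I and antigen presentation were higher in 7 of 15 cases and lower in 5, against 38.5% and 27.9% of all genes. The transactivator Nlrc5 (344 and 8 reads), the peptide transporter Tap1 (167 and 19) and H2-D1 (3.57) were higher, but H2-K1 (-2.09), H2-T22 (13 and 304 reads) and Tapbpl (-1.48) lower, and these class I genes are near-identical in parts, so reads may be shared. Interferon response genes were higher in 13 of 35 cases and lower in 12, also against 38.5% and 27.9%. Their median of -0.02 turned to 0.01 with edgeR's scaling. Parp12 (466 and 1 reads), Trim25 (313 and 1) and Ifitm2 (3.95) were higher and Rsad2 (-2.64), Herc6 (-2.36) and Ifi27 (-1.88) lower. In tumors 30 of the 35 were higher in GTS, against 41.4% of all genes. Of 20 NF-kB genes 8 were higher, including Il1r1 (217 and 20 reads), Ikbkb (1.12) and the subunit Rela (0.98), and 5 lower, including Ikbke (-1.94), Relt (-1.06) and Nfkbie (-0.73).

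Among lists of cell maintenance the differences were mostly small, with single genes far apart. Over all genes 38.5% were higher and 27.9% lower. Cholesterol and fatty acid genes were higher in 17 of 39 cases and lower in 10 (median 0.12): lipoprotein lipase, Lpl, had 2225 and 2 reads, and the lipid exporter Abcg1 339 and 5, while Abca1 (-1.33), Mvk (-0.86) and Hsd17b7 (-0.49) were lower. Lysosome and autophagy genes were higher in 25 of 42 cases and lower in 9 (median 0.42), with the cathepsin genes Ctsz (966 and 4 reads), Ctsc (359 and 1) and Ctso (2.26) higher, and Ctsf (7 and 811 reads), Hexa (-2.79) and the master regulator Tfeb (-1.80) lower. Of 37 genes of DNA repair and drug export 16 were higher, among them the exporters Abcc4 (3.81) and Abcb1b (1.22) and the glycosylase Mpg (1.57), and 8 lower, among them Brca2 (-1.39). Quiescence and FoxO genes were higher in 19 of 29 cases and lower in 2 (median 0.57), with Gas6, a ligand of AXL family receptors (6815 and 3 reads), and Klf4 (412 and 0, at least 122-fold) higher, and Bhlhe41 (-0.56) and Sod2 (-0.31) lower. Immediate early and heat shock genes were higher in 17 of 26 cases and lower in 3, with Fosl2 (3.09), Ier3 (2.18) and Hspa1b (1.48) higher and Hspa5 (-0.62) and Dusp1 (-0.59) lower. Of 54 chromatin genes 30 were higher and 19 lower, with the BAF subunits Smarcd3 (5.68) and Dpf3 (2.39) and the corepressor Tle2 (3.04) higher, and Rbbp7 (-1.51), the polycomb gene Bmi1 (-1.10) and Arid2 (-1.05) lower. Of 13 epithelial keratin and junction genes 6 were higher, with Cldn2 (390 and 1 reads), Dsp (104 and 11) and Tjp3 (1.43), and 3 lower, Esrp1 (7 and 372 reads), Pkp1 (-3.02) and Pkp2 (-0.80).

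**Figure D4:**
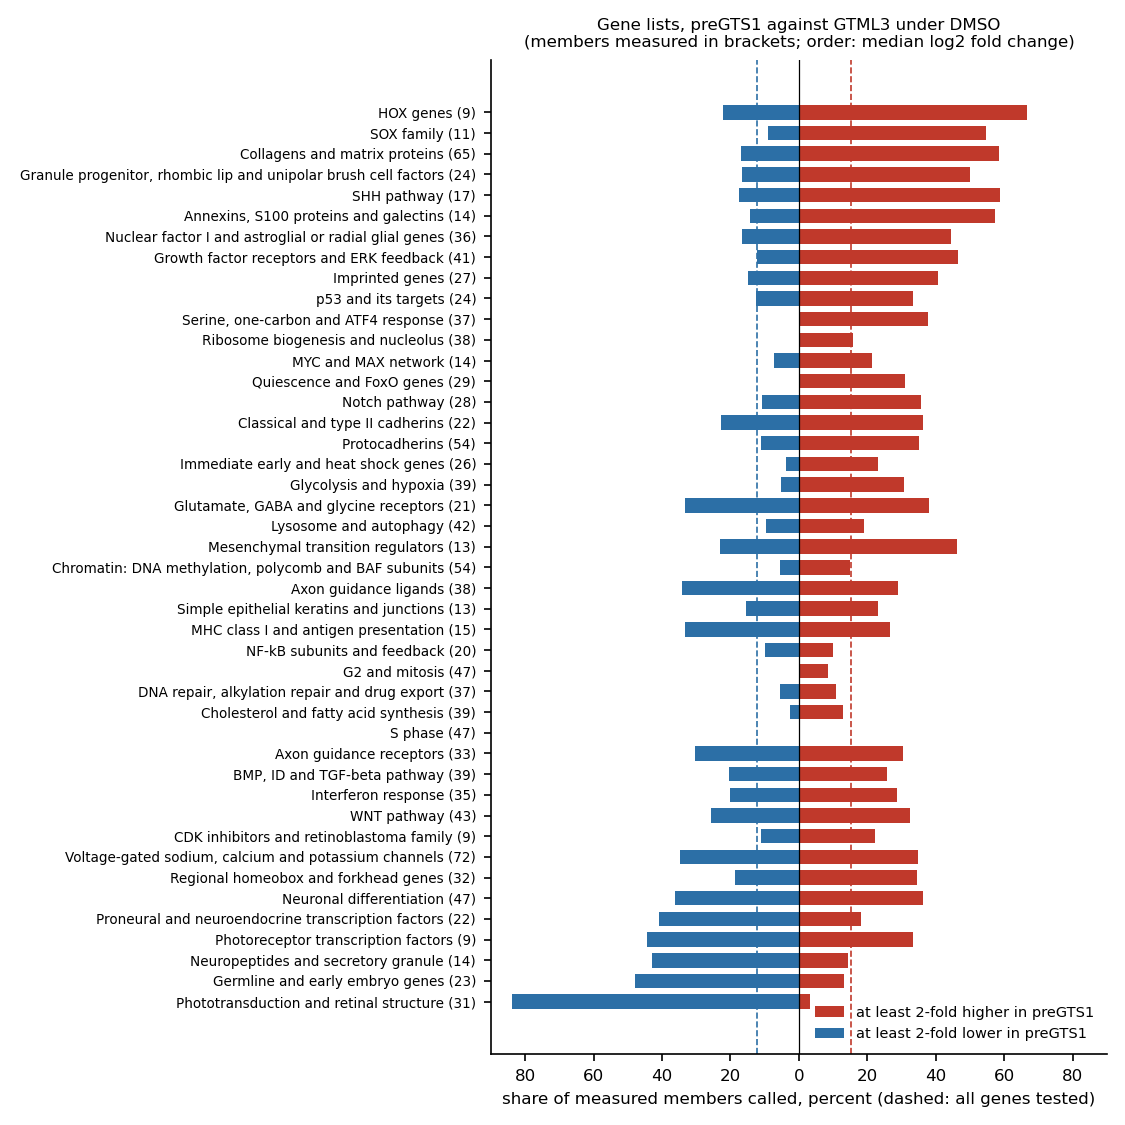
Share of each list's measured members (number in brackets) called at least 2-fold higher (right, red) or lower (left, blue) in preGTS1 under DMSO, in percent, for lists with at least 8 members, ordered by median log2 fold change. Dashed lines mark the shares of all genes, 15.3% and 12.2%. HOX, SOX, matrix, granule progenitor and SHH genes lie at the top and phototransduction genes at the bottom.

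Markers of other cells were sparse in both lines. Of 9 erythroid markers 0 had a value here, of 13 lymphocyte markers 1, of 11 ependymal and choroid plexus markers 1, of 20 microglia and macrophage markers 4, of 12 endothelial markers 4, of 10 muscle markers 5, of 14 mural and fibroblast markers 7 and of 16 oligodendrocyte lineage markers 8. The summed level of the mural and fibroblast markers was 125 to 173 CPM in preGTS1 and 18.4 to 20.02 CPM in GTML3, and Col3a1 made up most of it in preGTS1. Pdgfrb (83 and 0 reads, at least 24.6-fold) and Notch3 (1.47) were also higher, while the pericyte gene Rgs5 (2 and 251 reads), the smooth muscle gene Myl9 (-2.24) and Des (-0.99, limma adjusted p = 0.0436, lost in 6 of 14 other settings, range 0.0148 to 0.178) were lower. The part of fibroblasts in the matrix difference was not tested, and in bulk RNA fewer cells of a type and less RNA per cell cannot be told apart. Microglial markers summed to 15.8 to 17.2 CPM and 13.8 to 15.04 CPM, with Cd68 (1.91) higher and Tmem119 (17 and 211 reads) lower. Endothelial markers summed to 25.7 to 30.8 CPM and 5.83 to 6.54 CPM, with Egfl7 (3.25), the bulk of the sum in preGTS1, Kdr (0.88) and Pecam1 (1.18, limma adjusted p = 0.0173) higher and Esam (16 and 82 reads) lower. The Pecam1 call was lost without preGTS1 replicate 2 (limma adjusted p = 0.0761) or GTML3 replicate 3 (0.0957), in a range of 0.00815 to 0.0957 over 14 settings. Oligodendrocyte markers summed to 47.9 to 55.5 CPM and 32.6 to 41.6 CPM, with Ugt8a (481 and 2 reads), Olig1 and Mbp (3.27) higher and Pdgfra (-1.49) and Cspg4 (-0.91) lower. Cd4, the 1 lymphocyte marker, was lower (-3.40), Aqp1, the 1 choroid plexus marker, higher (2.74), and of the muscle markers Myog was higher (3.39) and Ttn (-1.003) and Des lower.

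Across all genes, promoters differed in the direction of the RNA more often than the background, both among genes higher and among genes lower in preGTS1. Of the genes at least 2-fold higher in preGTS1, 1615 had reads at the promoter in both lines, and 698 of them (43.2%) were at least 1.5-fold more open there, against the 11.2% of all genes. Of the 1105 genes at least 2-fold lower, 568 (51.4%) were at least 1.5-fold less open, against 30.2%. The median promoter ratio was 3.82 for 633 genes with an RNA difference above 3 and 1.03 for 995 genes between 1 and 3. It was 0.664 for 864 genes between -3 and -1 and 0.662 for 256 genes below -3. The median thus hardly changed among genes lower in preGTS1 and changed most above an RNA difference of 3.

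**Figure D5:**
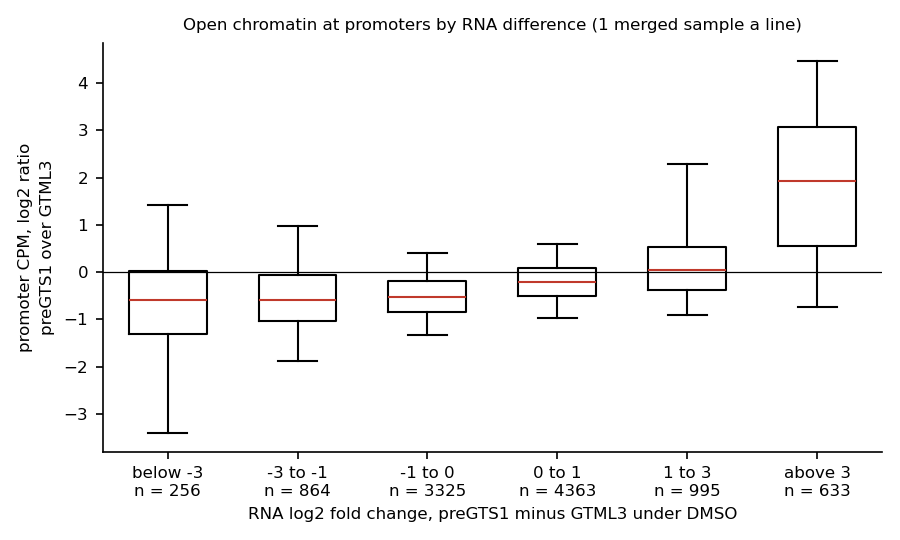
Log2 ratio of promoter CPM, preGTS1 over GTML3, by bins of the RNA log2 fold change under DMSO (box: quartiles, red line: median, whiskers: 5th and 95th percentile; 1 merged ATAC sample a line, so no test). The median ratio, not in log2, is 3.82 in the highest bin and 0.662 in the lowest.

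Under DOX most of the line difference was seen again in separate libraries. Of the 4374 genes at least 2-fold apart under DMSO, 3772 (86.2%) were called in the same direction under DOX. Of all 15926 genes 5879 were called higher and 5579 lower in preGTS1 under DOX. In opposite directions, 799 genes of the table were called in both conditions. The size often changed, as 42.2% of all genes passed the limma test of the difference between both differences. In tumors, 1057 of the 1994 listed genes at least 2-fold higher in preGTS1 were higher in GTS than in GTML, as were 685 of the 1374 genes (49.9%) at least 2-fold lower in preGTS1 and 41.4% of all genes.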

How the data were processed

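RNA-seq of both lines was analysed from the authors' deposited table of log2 CPM, on which whole reads are multiples of 1 step: 100% of low values were whole within 0.1 read, and these recovered reads gave the depths, from 15.56 to 24.672 M under DMSO. Trizol and RNeasy columns gave the RNA and Ion Torrent kits the libraries, per the labels. Columns were matched to samples by title, since titles and column names are identical. In 11 of the 12 treated-line samples the labels' free-text description names the following column instead, and in the last it names none. Had descriptions been followed, replicate 3 of each line under DMSO would take the values of a DOX column. The submitters' processing notes name STAR 2.4.0, Subread 1.5.2, Bowtie2 2.2, MACS2, edgeR and limma and the builds mm9 and mm10, without roles. Reads per scaled library size were 1.1266 to 1.1639 in preGTS1 and 0.9723 to 0.9818 in GTML3. ATAC-seq values are the authors' deposited CPM over regions, merged here over duplicates. Promoter regions lay within 1 kb of the gene's start as the authors' region names give it, so they need not match the printed RefSeq windows. Tumor log2 CPM came as a separate table that the authors normalized on its own, with 8 per-sample columns of the tables left unused.

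A limma model (version 3.58.1, R 4.3.3; trend and robust) was fitted to 12 samples, both lines under DMSO and DOX, on genes with at least 1 CPM in 3 samples, which all 15926 genes passed, with Benjamini-Hochberg adjustment over them and a threshold of 0.05. edgeR 4.0.16 and DESeq2 1.42.0 on the recovered reads were alternatives, and the fits were tested on simulated data. Members and gene lists were chosen with earlier results of these data known, so their counts are descriptions. Named genes are the model genes, the 12 most different in each direction with a mean of 5 CPM or more, up to 3 per list and direction, and the 6 with the largest CPM difference in each direction. Apart from the model genes, these had to be called with no overlap between the lines, so both traits follow from the choice. Counting intervals (95%) and the floor of 3 reads over a group cover counting error only. A few genes that this rule names are not reported here.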

Additional observations from a re-analysis of the deposited data

Results flagged for a closer look

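The difference between the lines was not the same under DOX and under DMSO for 12 genes, among the model genes and the 12 highest and 12 lowest genes. The test was limma's, of the difference itself (line difference under DOX minus line difference under DMSO, log2 scale, adjusted over all genes, 3 samples a group). Of all genes 42.2% passed it, so passing it alone says little about these genes. The difference between both differences was -1.27 for Mycn (limma adjusted p = 0.000324), which stood at 0.84 under DOX and 2.10 under DMSO. It was -1.12 for Trp53 (0.51 and 1.64, limma adjusted p = 0.000205) and 1.52 for Cdkn2a (2.74 and 1.22, limma adjusted p = 4.8e-06). For Mgmt it was 1.47 (adjusted p = 0.000714), and the direction turned, with 0.80 under DOX and -0.66 under DMSO.

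Among the genes with almost no reads in GTML3 it was -1.33 for Gldc (limma adjusted p = 0.00908), -3.12 for Gnai2 (5.21e-07), -4.21 for Zfp518b (0.000792), -2.83 for Ckap4 (0.000448) and 2.07 for Cnr1 (0.0158), values that depend on what stands for 0 reads. Among genes far lower in preGTS1 it was 2.24 for Nell1 (limma adjusted p = 2.7e-05), 3.93 for Spock1 (1.94e-06) and 1.75 for Rprl1 (0.0403). All but Mgmt kept their direction under DOX.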

How the results depend on the processing

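With genes limited to a mean of 5 CPM or more (12271 tested), 1615 were at least 2-fold higher in preGTS1 and 1157 at least 2-fold lower, since fewer genes were tested. Leaving out each library in turn gave 2361 to 2513 genes higher at 2-fold, and 5721 to 5796 higher and 4106 to 4218 lower by call alone. DESeq2 called 5776 higher and 4910 lower (54.1% higher, against 57.9%), edgeR 6252 and 4525. Of 300 named called genes, 294 kept direction and call in each of up to 15 settings; Tgfb1, Slc7a3, Pecam1, Des, Rpph1 and AY036118 did not, and the cause was not tested. Of 2250 list values, 83 moved by over 1.5 times or 0.25 log2 units. The phototransduction median was -1.56 with log2(CPM + 1) and -4.13 at a mean of 5 CPM.

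The replicate numbers do not pair the samples: deviations of same-numbered libraries correlated at -0.157, 0.215 and -0.388. With the replicate number as a block, 5963 genes were higher and 4290 lower, 2430 and 1932 at 2-fold. Promoter values at low depth in GTML3 are limited by counting.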
